A study of Mus musculus with 7 samples.

Results

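The 7 sirtuin genes, Sirt1 to Sirt7, and the poly(ADP-ribose) polymerase genes Parp1 and Parp2 were followed in Paneth cells of calorie-restricted and freely fed mice. Members were taken by gene symbol, and each of the 9 was read from 1 transcript cluster (the set of probes that the array gives for a gene), out of 19938 named genes. Paneth cells, which secrete antimicrobial proteins from the bottom of the crypts of the small intestine, were sorted by flow cytometry from mice aged 4 months. The calorie restricted group (4 arrays) received 60% of the calories of the ad libitum group (3 arrays), and both diets lasted 4 to 7 weeks. Neither the strain and genotype nor any pooling of animals is stated in the labels, so p-values measure the spread between these samples. Levels are the deposited log2 values, for which 1 unit is 2-fold. Each difference is the calorie restricted mean less the ad libitum mean.

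Sirtuins remove acetyl or longer acyl groups from lysines of proteins and use up NAD as they do so. PARP1 and PARP2 also split NAD, building chains of ADP-ribose on proteins at DNA breaks, so both families draw on the same cofactor. SIRT1 has been studied widely as a mediator of responses to calorie restriction, and in the gut it is known for its part in how intestinal stem cells respond to signals from Paneth cells.

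None of the 9 genes passed the test between the diets. All 9 lay above the filter on low values (an overall mean of at least 6.79), and limma called 0 of them at an adjusted p below 0.05, against 89 of 13409 genes (0.664%) in the whole table. At an unadjusted p below 0.05 the count was 0 of the 9, where 9.30% of all genes tested fell. An ordinary linear model without moderation called 0 of the 9 and 0 of all genes, as did a fit with the replicate number as a block. Their counts therefore say nothing of the 9. The diets' arrays overlapped for each of the 9, and 10.2% of all genes had groups that did not overlap. For a set of 9, counts of 0 lie near these shares, so they do not set the 9 apart from other genes. The differences ran from -0.24 for Sirt4 to 0.18 for Sirt6, with 5 positive and 4 negative and a median of 0.01, which is also the median over all genes tested. The 95% intervals all included 0, and their outermost bounds were -0.61 (Sirt4) and 0.46 (Parp2), equal to 1.52-fold at most. Differences of 2-fold therefore lay outside every interval, and each interval still held smaller differences in both directions. Of 18 alternative settings, only array weights changed the count, to 2 (Sirt4 at -0.48, adjusted p = 0.0467, and Sirt6 at 0.26, adjusted p = 0.0449), in a fit that called 10.1% of all genes.

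**Figure D1:**
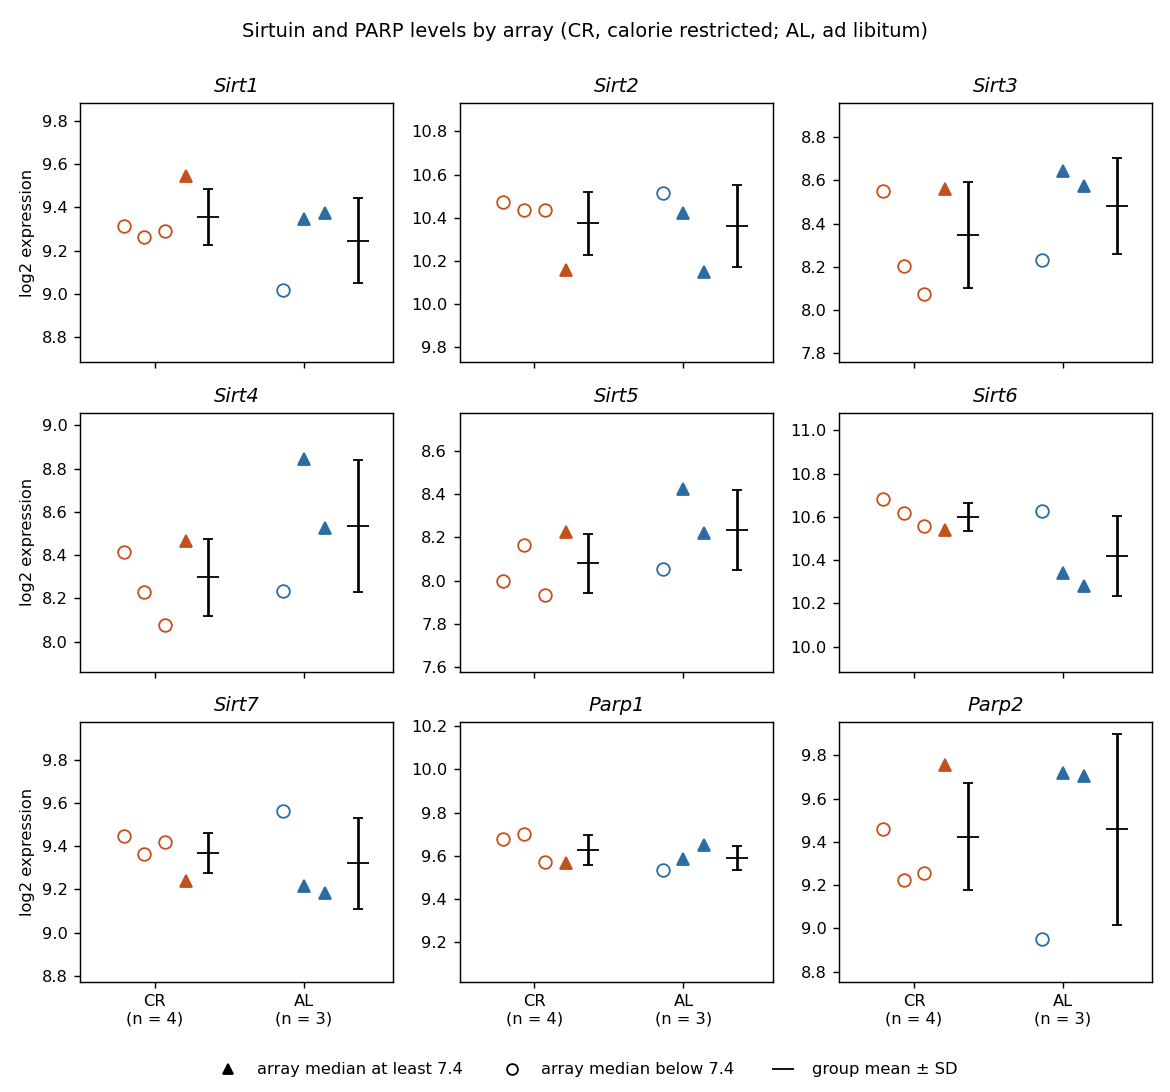
Level of each gene on each array (log2 expression), with calorie restricted (CR, 4 arrays) left of ad libitum (AL, 3 arrays), and the group mean with its SD as a bar. Every panel spans 1.2 log2 units, and the diets overlap in all 9. Triangles mark the 3 arrays with a median of at least 7.4.

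Sirt1 encodes the main nuclear deacetylase of the family, which acts on transcription factors. Its level was 9.32, 9.26, 9.29 and 9.55 in calorie restricted replicates 1 to 4, against 9.02, 9.35 and 9.37 in ad libitum replicates 1 to 3. The calorie restricted replicate 4 was the highest array and the ad libitum replicate 1 the lowest, with the others within 0.11 of each other. The means were 9.35 ± 0.13 against 9.25 ± 0.20 (SD, n = 4 and 3), a difference of 0.11 ± 0.12 (SE). The adjusted p was 0.857 by limma, and an exact two-sided permutation test over the 35 splits of the arrays gave p = 0.543, where the smallest possible p is 0.0286. Without ad libitum replicate 1 the difference was -0.0047.

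Sirt6 and Sirt7 encode the other nuclear sirtuins, SIRT6 at chromatin and SIRT7 in the nucleolus. Sirt6 read 10.68, 10.62, 10.56 and 10.54 in calorie restricted replicates 1 to 4, against 10.63, 10.34 and 10.28 in ad libitum replicates 1 to 3. Its difference of 0.18 ± 0.10 had the smallest p among the 9 (limma, adjusted p = 0.678; exact permutation p = 0.143), and the ad libitum replicate 1 alone kept the diets from separating. Sirt7 read 9.45, 9.36, 9.42 and 9.24 under calorie restriction, against 9.56, 9.21 and 9.18 under ad libitum feeding. The highest and the lowest array of Sirt7 were both ad libitum, and the difference was 0.05 ± 0.12 (adjusted p = 0.941).

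Sirt2 encodes a mostly cytoplasmic deacetylase whose substrates include tubulin. It read 10.47, 10.43, 10.43 and 10.16 under calorie restriction, against 10.51, 10.42 and 10.15 under ad libitum feeding. One array of each diet, calorie restricted replicate 4 and ad libitum replicate 3, lay below the rest, and the difference was 0.01 ± 0.12 (adjusted p = 0.988), or -0.034 after quantile normalization.

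The mitochondrial sirtuins all had negative differences. Of these, 0 of 3 passed the threshold, against 0.664% of all genes tested, and a count of 0 lies near that share. Sirt3, the major mitochondrial deacetylase gene, read 8.55, 8.20, 8.07 and 8.56 under calorie restriction, against 8.23, 8.64 and 8.57 under ad libitum feeding. Sirt4, whose product acts on glutamate and leucine metabolism, read 8.41, 8.23, 8.07 and 8.47 under calorie restriction, against 8.23, 8.84 and 8.52 under ad libitum feeding. For both genes the calorie restricted replicates 2 and 3 and the ad libitum replicate 1 were the 3 lowest arrays. Sirt5, whose product removes succinyl and malonyl groups, read 8.00, 8.17, 7.93 and 8.22 under calorie restriction, against 8.05, 8.42 and 8.22 under ad libitum feeding. The differences were -0.13 ± 0.16 for Sirt3 (adjusted p = 0.866), -0.24 ± 0.16 for Sirt4 (adjusted p = 0.756) and -0.15 ± 0.12 for Sirt5 (adjusted p = 0.805). Their size rested on single arrays: without ad libitum replicate 2 they were -0.05, -0.08 and -0.06 for Sirt3, Sirt4 and Sirt5, and without ad libitum replicate 1 they were -0.26, -0.39 and -0.24.

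The 2 polymerase genes differed in how much they varied. Parp1 encodes the enzyme that makes most poly(ADP-ribose) after DNA damage. It was the steadiest of the 9, at 9.68, 9.70, 9.57 and 9.57 under calorie restriction, against 9.53, 9.58 and 9.65 under ad libitum feeding. Parp2, the gene of its close relative, was the most variable, at 9.46, 9.22, 9.25 and 9.76 under calorie restriction, against 8.95, 9.72 and 9.71 under ad libitum feeding. The whole range over 7 arrays was 0.17 for Parp1 and 0.81 for Parp2. Their differences between diets were 0.04 ± 0.08 (adjusted p = 0.931) and -0.03 ± 0.21 (adjusted p = 0.977), and that of Parp2 turned to 0.05 when the arrays were centred on their medians.

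**Figure D2:**
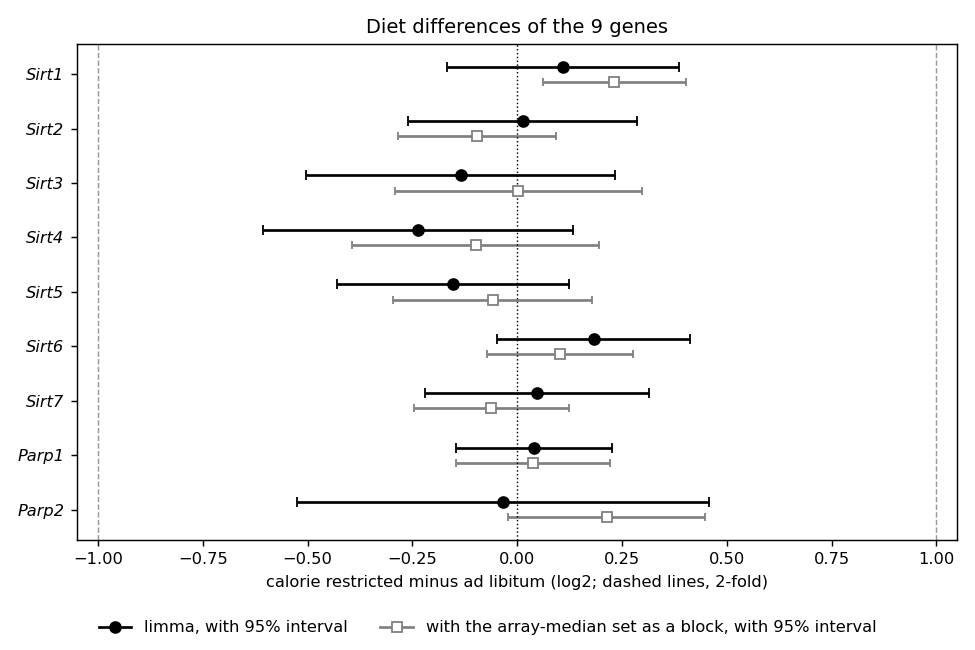
Difference between diets (log2, calorie restricted minus ad libitum) for each gene with its 95% interval, from the limma fit (filled circles) and from a fit with the set of arrays by median as a block (open squares). All filled intervals include 0 and lie inside the dashed 2-fold lines. With the block, only the interval of Sirt1 (0.06 to 0.40) leaves 0 outside (adjusted p = 0.117), in a fit where 21.2% of all genes had an unadjusted p below 0.05.

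All of the 9 but Parp1 followed another division of the arrays. The medians of calorie restricted replicate 4 and ad libitum replicates 2 and 3 were 7.42 to 7.44, and those of the other 4 arrays were 7.24 to 7.29. For 8 of the 9 genes these 3 arrays did not overlap the other 4, where 27.4% of all genes tested had this property. Sirt1, Sirt3, Sirt4, Sirt5 and Parp2 were higher on the 3 arrays, Sirt2, Sirt6 and Sirt7 were lower, and Parp1 was mixed. The means of Parp2 were 9.73 on the 3 arrays and 9.22 on the other 4, a gap of 0.51. The gap was 0.37 for Sirt4, 0.33 for Sirt3, 0.25 for Sirt5 and 0.20 for Sirt1, and it was -0.22 for Sirt2, -0.23 for Sirt6 and -0.24 for Sirt7. For these 8 genes the gap was larger than the difference between diets, as it was for 63.2% of all genes tested. The division was seen in the data, so no test was made of it, and some margins were narrow, such as 8.56 against 8.55 for Sirt3.

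**Figure D3:**
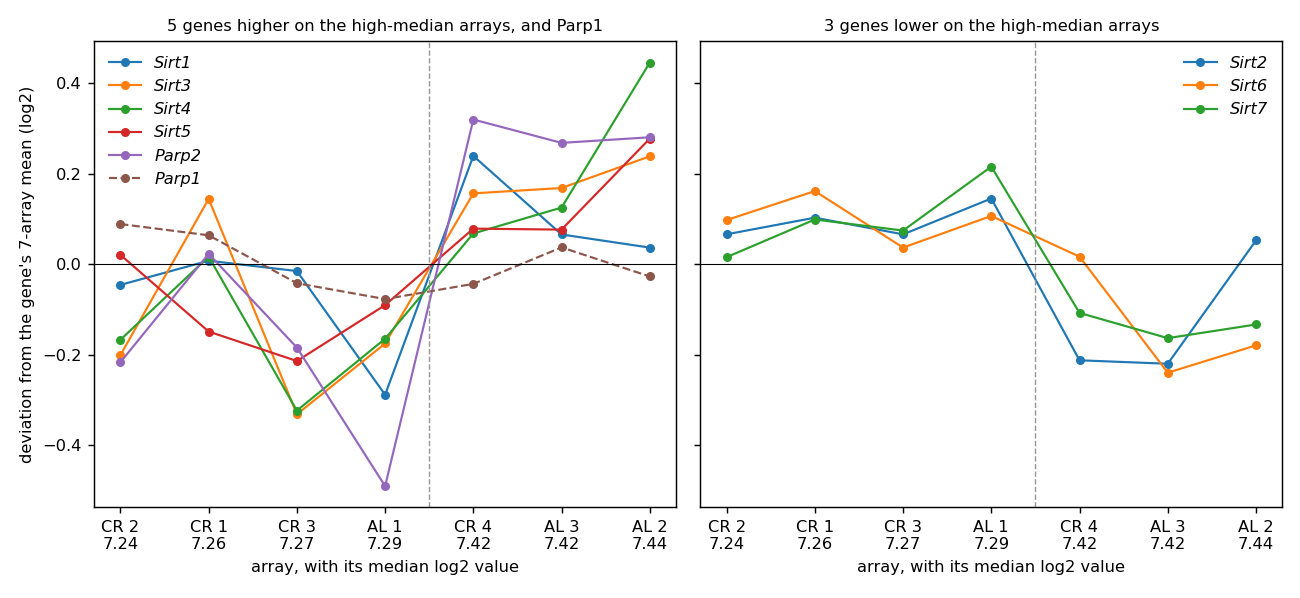
Deviation of each gene from its own mean over the 7 arrays (log2), with arrays ordered by their median from low to high, and the dashed vertical line between the 4 lower and the 3 higher medians. The lines of 5 genes step up and those of Sirt2, Sirt6 and Sirt7 step down across it, while Parp1 (dashed, left panel) stays within 0.09 of its mean.

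Most enteroendocrine markers moved with the same division, and markers of other cell types did so in part or not at all. The sets did not overlap for 1 of 12 Paneth, 2 of 18 enterocyte, 2 of 6 stem cell and 1 of 5 immune markers. The same held for 0 of 7 goblet, 0 of 7 tuft and 0 of 6 stroma markers. Of 8 enteroendocrine (hormone-producing cell) markers measured, 7 were lower on the 3 arrays without overlap, among them Neurod1, Tph1, Chga and Gip, and Cck was the exception. The mean of that list was 10.16 in calorie restricted replicate 4, and 10.29 and 10.20 in ad libitum replicates 2 and 3, against 10.57 to 11.28 on the other 4 arrays. Of 7 proliferation markers measured, Mki67, Birc5 and Mcm6 were higher on the 3 arrays without overlap. Over all genes tested, 27.4% did not overlap between these sets in either direction. The mean of the proliferation list overlapped between the sets. It was 10.64, 10.20, 10.08 and 10.91 in calorie restricted replicates 1 to 4, against 9.54, 10.55 and 10.81 in ad libitum replicates 1 to 3. Its lowest array, ad libitum replicate 1, was also the lowest for Parp2 and Sirt1, and its highest, calorie restricted replicate 4, was also the highest for both. The part of these cells or of array quality in the 9 genes' pattern was not tested. In RNA from sorted bulk cells, fewer cells of a type and less RNA per cell cannot be told apart.

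**Figure D4:**
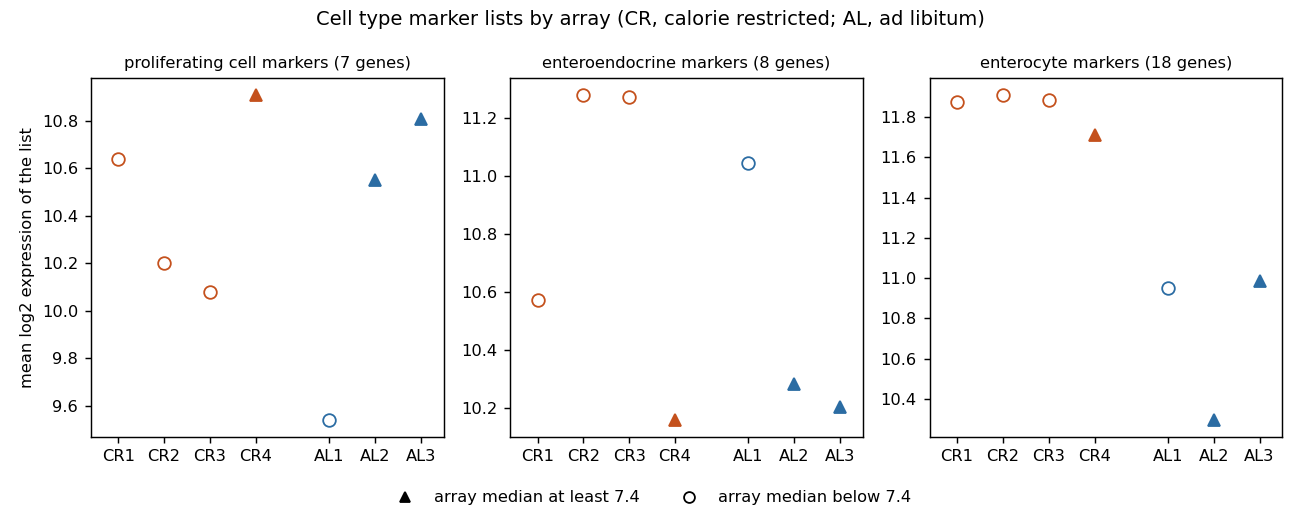
Mean log2 expression of 3 marker lists on each array, with calorie restricted (CR) arrays left of ad libitum (AL) arrays and triangles for the 3 arrays with a median of at least 7.4. The enteroendocrine mean is at most 10.29 on the triangles and at least 10.57 elsewhere, whereas the enterocyte mean separates the diets.

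Within each set of arrays the diets could be set side by side, with no test because a set holds 1 array of one diet. Sirt1 was higher under calorie restriction in both sets, by 0.19 where medians were high and by 0.27 where they were low. The single arrays behind these values, calorie restricted replicate 4 and ad libitum replicate 1, were the highest and the lowest for Sirt1. With the set as a block, an alternative chosen after seeing the data, its difference was 0.23 ± 0.07 (limma, adjusted p = 0.117). Sirt6 differed by 0.23 among the arrays with high medians and by -0.01 among the others, and its blocked difference was 0.10 ± 0.08 (adjusted p = 0.495). Parp2 differed by 0.05 and 0.36, with a blocked difference of 0.21 ± 0.10 (adjusted p = 0.276). Of the mitochondrial sirtuins, Sirt4 differed by -0.22 and 0.01, Sirt3 by -0.05 and 0.05 and Sirt5 by -0.10 and -0.02. Their blocked differences were -0.10 ± 0.13 for Sirt4, 0.0022 ± 0.13 for Sirt3 and -0.06 ± 0.10 for Sirt5. Without the block they were -0.24, -0.13 and -0.15. Sirt2 was lower under calorie restriction in both sets, by -0.13 and -0.07, while Sirt7 differed by 0.04 and -0.15 and Parp1 by -0.05 and 0.11. That fit called 0 of the 9 genes, against 3.85% of all genes tested, and 1 of the 9 (Sirt1) had an unadjusted p below 0.05, against 21.2% of all genes.

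The windows upstream of Sirt1, Parp1 and Parp2 are shown because these 3 members alone held a CACGTG E-box. Factors such as MYC, USF and CLOCK read this sequence. Sirt1 and Parp2 also had alike patterns over the arrays (Pearson's r = 0.886). Sirt3 and Sirt4 were as alike (r = 0.902), and their windows held 0 E-boxes. All 9 members had at least 1 of 11 RefSeq start sites in the reference (GRCm38.p6). Of all 32851 windows of 250 bases before a start site, 6.02% held CACGTG, which reads the same on both strands, and 0.429% held it at least 2 times, as Sirt1 did. The FOXO sequence TGTTTAC (both strands) was in 0 members' windows and in 3.17% of all windows, and the cAMP response element TGACGTCA was in 0 and in 1.55%. The motifs were chosen after the sequences had been seen. The sequences run 5′ to 3′ toward the gene and end at the base before it, with CACGTG in capitals. They lie at chr10:63339036-63339285 (minus strand), chr1:180568641-180568890 (plus strand) and chr14:50807666-50807896 (plus strand). The Parp2 sequence is printed as 231 bases because its 250-base window, in which the letters were counted, runs into the annotated gene. The window of Parp2 overlaps Rpph1, the gene of the RNA subunit of RNase P, and that of Parp1 overlaps Gm31986.
Sirt1: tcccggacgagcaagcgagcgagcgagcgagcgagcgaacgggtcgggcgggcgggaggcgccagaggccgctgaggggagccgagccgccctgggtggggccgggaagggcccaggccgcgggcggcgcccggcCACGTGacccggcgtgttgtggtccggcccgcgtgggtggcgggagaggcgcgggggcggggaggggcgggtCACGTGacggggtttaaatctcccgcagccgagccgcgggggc
Parp1: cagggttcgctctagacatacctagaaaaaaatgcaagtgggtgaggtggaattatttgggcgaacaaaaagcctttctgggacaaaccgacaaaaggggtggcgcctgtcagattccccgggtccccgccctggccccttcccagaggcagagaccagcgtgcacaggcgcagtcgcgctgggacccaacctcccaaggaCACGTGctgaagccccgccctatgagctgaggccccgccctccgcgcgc
Parp2: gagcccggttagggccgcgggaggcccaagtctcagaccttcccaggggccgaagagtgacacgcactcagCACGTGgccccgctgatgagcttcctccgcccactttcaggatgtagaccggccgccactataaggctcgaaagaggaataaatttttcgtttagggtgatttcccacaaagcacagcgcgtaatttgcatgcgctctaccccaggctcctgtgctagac
The letters lie 109 and 37 bases before Sirt1, 43 bases before Parp1 and 154 bases before Parp2. Parp1 held the letters and was mixed between the 2 sets of arrays. Sirt3, Sirt4 and Sirt5 held 0 copies and were higher on the 3 arrays with high medians. Whether the letters bear on the levels was not tested, and a match says nothing of whether a factor bound there.

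By likeness of pattern, taken as Pearson's r over the 7 arrays and 13400 other genes, Parp2 was nearest to Pcnt (r = 0.995) and Cntrob (r = 0.994), both centrosome genes. Sirt1 was nearest to Tbp, the TATA-binding protein gene (r = 0.993), and Depdc5, a subunit of an mTORC1 inhibitor (r = 0.992). Sirt7 was nearest to the AAA ATPase gene Vcp (r = 0.993) and Sec16b (r = 0.989), and Sirt6 to the mitochondrial ribosomal gene Mrps23 (r = 0.993) and Pstpip2 (r = 0.987). For the others the nearest were Nudcd1 and Rwdd4a (Sirt2), Ubac1 and the importin Ipo8 (Sirt3), Ankrd23 and Ccdc191 (Sirt4), Ermard and Rnf213 (Sirt5), and Mrps18c and Rcl1 (Parp1), with r from 0.958 to 0.991. An r above 0.9 was common over so few arrays: 771 genes reached it with Parp2, 488 with Sirt1 and 20 with Parp1, the fewest. All these points share the 2 sets of arrays described above.

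Genes that act beside the 9 were counted in lists from textbook knowledge. Over all genes tested 0.664% passed the threshold, so a count of 0 in lists this short lies near that share. The rest of the PARP family with the enzymes that remove ADP-ribose had 0 of 18 measured members past the threshold in either direction, with a median difference of -0.02. Its smallest p-values belonged to Zc3hav1 (-0.13 ± 0.08), Parp11 (-0.21 ± 0.14), Parp16 (0.15 ± 0.10) and Parp14 (-0.19 ± 0.13). The glycohydrolase gene Parg, which takes the chains down, was at 9.39 ± 0.10 against 9.40 ± 0.11. The zinc-dependent histone deacetylases, which need no NAD, had 0 of 10 past the threshold and a median of -0.04. Among them Hdac1 read 10.91 to 11.07 under calorie restriction, against 10.69 to 10.82 under ad libitum feeding (0.22 ± 0.07, adjusted p = 0.380), and Hdac10, Hdac7 and Hdac6 had differences of -0.19, -0.18 and -0.15.

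Genes of NAD supply and of other NAD users had 1 of 15 measured members higher and 0 lower, with a median of 0.10 and 13 of 15 positive, where 54.2% of all genes tested were positive. The gene past the threshold was Bst1, which makes cyclic ADP-ribose from NAD and for which this study is known (1.54 ± 0.25, adjusted p = 0.0439). This call was close to the threshold and was lost in 9 of 18 alternatives, with differences of 1.27 to 1.97 over the 18. Among the losses were the ordinary linear model (adjusted p = 0.245), the replicate block (0.118) and quantile normalization (0.0676). The others came with the omission of any array but calorie restricted replicate 4 (0.0527 to 0.156). The ordinary linear model and the replicate block called 0 of all genes, so those losses are not particular to Bst1. Only 12 to 32 of all genes were called without calorie restricted replicate 1, 2 or 3 or ad libitum replicate 2. Nampt, the rate-limiting enzyme of NAD salvage, read 9.94 to 10.13 under calorie restriction, against 9.73 to 9.86 under ad libitum feeding (0.24 ± 0.08, adjusted p = 0.402). Nmnat2 (0.26 ± 0.11) and the nicotinamide riboside kinase gene Nmrk1 (0.25 ± 0.11) did not pass. Enterocyte markers moved with the diets beside these values. All 18 measured were positive and 6 (Apoc3, Treh, Fabp2, Cyp3a11, Alpi and Apoa4) were higher. That count fell to 1 without calorie restricted replicate 1, 2 or 3 and to 3 without replicate 4. With quantile normalization it was 4, and with the replicate block or the ordinary linear model it was 0. It rose to 17 with array weights, where 10.1% of all genes were called, and to 13 with the median set as a block. Median centring or the omission of ad libitum replicate 1 gave 8, and the omission of ad libitum replicate 3 gave 7. The enterocyte list had a mean of 11.71 to 11.91 in every calorie restricted array, against 10.29 to 10.98 in every ad libitum array, and their part was not tested.

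Among proteins that nuclear sirtuins deacetylate or that regulate SIRT1, 0 of 30 measured genes passed in either direction, and the median was 0.06. The nuclear receptor genes Pparg (0.62 ± 0.14, adjusted p = 0.127), Ppara (0.51 ± 0.16) and Nr1h3 (0.46 ± 0.15) and the hypoxia factor gene Hif1a (0.34 ± 0.11) had the smallest p. Ccar2, whose product inhibits SIRT1, was at 9.45 ± 0.07 against 9.38 ± 0.08. Substrates of the mitochondrial sirtuins had 0 of 28 past the threshold and a median of 0.15. Of the 28, 22 were positive, where 54.2% of all genes tested were positive. The ADP/ATP carriers Slc25a5 (0.23 ± 0.06, adjusted p = 0.227) and Slc25a4 (0.56 ± 0.16), the glutamate dehydrogenase gene Glud1 (0.31 ± 0.09) and Hadha of fatty acid oxidation (0.22 ± 0.08) led that list.

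Single-strand break and base excision repair genes, which work with PARP1 and PARP2, had 0 of 23 past the threshold and a median of 0.06. The repair polymerase gene Polb read 8.45 ± 0.10 under calorie restriction against 8.64 ± 0.01 (-0.19 ± 0.09, adjusted p = 0.591). Pcna (0.22 ± 0.13), Mpg (0.23 ± 0.15) and Hpf1, whose product directs PARP1 and PARP2 to serine (0.20 ± 0.14), followed. Glycolytic genes that SIRT6 is known to repress in mouse cells had 0 of 12 past the threshold and a median of 0.18. All 12 were positive, from 0.00053 (Pdk1) to 2.14 (Pdk4), where 54.2% of all genes tested were positive. Pdk4, a kinase that turns off pyruvate dehydrogenase, read 9.84, 10.10, 10.90 and 9.71 under calorie restriction, against 7.80, 7.20 and 8.98 under ad libitum feeding (2.14 ± 0.43, adjusted p = 0.0891). Pfkl (0.28 ± 0.09), Aldoc (0.37 ± 0.17) and Pgk1 (0.24 ± 0.12) came next. The enterocyte means given above separate the diets for these lists as well.

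**Figure D5:**
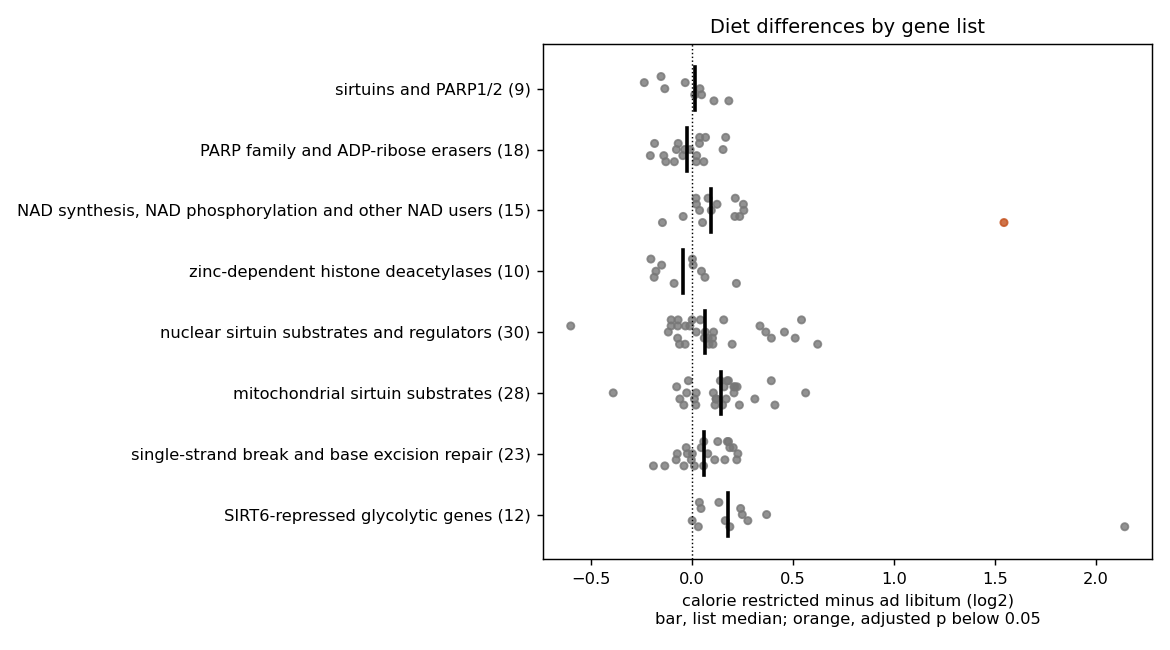
Difference between diets (log2, calorie restricted minus ad libitum) of every measured gene in the 9-gene set and in 7 related lists, with the list median as a bar and the number of genes in brackets. The 9 genes lie between -0.24 and 0.18. Bst1, at 1.54, is the single gene past an adjusted p of 0.05. This call was lost in 9 of 18 alternatives, among them the ordinary linear model and the replicate block, which called 0 of all genes.

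All 12 Paneth markers listed were measured above the filter, and their mean was 12.79 to 13.17 on the 7 arrays, with Lyz1 at 14.31 ± 0.04 against 14.31 ± 0.02. The markers measured for goblet cells (7 of 7), tuft cells (7 of 7) and stem cells (6 of 6) also lay above it. So did those of enterocytes (18 of 18), enteroendocrine cells (8 of 8) and proliferating cells (7 of 7). The goblet list had a mean of 13.28 to 13.49, above the Paneth list on every array. The part of these cells in the values was not tested. Of 8 immune cell markers 5 lay above the filter, and Cd79a, Itgax and Gzma lay below it. Of 8 stroma markers 6 lay above it, and Pdgfra and Dcn lay below it.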

How the data were processed

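Total RNA (10 ug) of sorted Paneth cells was hybridised to Affymetrix arrays, 1 per sample. The deposited values are log2 expression per transcript cluster, which per the submitters' processing notes the authors computed in Affymetrix Expression Console. Sources used here do not give the algorithm, normalization or version, and the log2 scale was inferred from the range (about 3 to 15). No detection call was used.

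Of 35556 clusters, 21789 had 1 gene symbol in the platform annotation, 1621 had several and 12146 were unnamed here. Through gene identifiers in a RefSeq table, 0 symbols changed. The brightest cluster of each of 19938 genes was kept, and genes with a mean under the 40th percentile of clusters (6.79) were left out.

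Diets were compared on the 13409 genes left with limma (version 3.58.1, R 4.3.3): lmFit, eBayes with trend, Benjamini-Hochberg over all genes. The fit was tested on simulated data. Members and lists were chosen with earlier results of these data known. Genes named were all members, called genes and the 4 smallest p-values of each pathway list, and the 2 most alike genes per member. For cell type lists the rule was the 2 brightest genes and the 2 smallest p-values, given here only in part (Lyz1 for Paneth cells); Parg, Ccar2, the enterocyte genes called and the marker genes given by array set or below the filter were named after their values were seen. Alternatives are in the closing section. Replicate numbers were not treated as pairs, and the labels do not say whether they pair the samples. Promoter windows came from RefSeq (GRCm38.p6), and figures were drawn with matplotlib (version 3.10.9).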

Additional observations from a re-analysis of the deposited data

Results flagged for a closer look

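Sirt2 in calorie restricted replicate 4 read 10.16, far below the other 3 calorie restricted arrays (10.43 to 10.47). The gap to the nearest was 0.883 of the group's range, past the Dixon 95% limit for 4 samples. Ad libitum replicate 3 was at the same level (10.15). Chance passes this limit in about 1 of 20 groups, and 9 genes were examined.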

How the results depend on the processing

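The count of 0 called among the 9 genes held in 17 of 18 alternatives. The ordinary linear model and the replicate block called 0 of all genes, so their counts say nothing of the 9. With array weights, which gave 0.292 and 0.371 to ad libitum replicate 1 and calorie restricted replicate 4 and 2.93 to ad libitum replicate 2, limma called 2: Sirt4 at -0.48 (adjusted p = 0.0467) and Sirt6 at 0.26 (adjusted p = 0.0449). There 10.1% of all genes (1355) were called, against 89 in the fit reported. Over the 162 values of the 9 genes, 18 changed sign. Sirt2 was -0.034 after quantile normalization, Parp2 was 0.053 after median centring, and Sirt1 was -0.026 with array weights. With the array-median set as a block, Sirt2, Sirt3, Sirt7 and Parp2 were -0.096, 0.0022, -0.062 and 0.21. Leaving out 1 array gave -0.0047 to 0.17 for Sirt1, -0.093 to 0.089 for Sirt2, -0.26 to -0.04 for Sirt3, -0.39 to -0.08 for Sirt4, -0.24 to -0.06 for Sirt5, 0.11 to 0.29 for Sirt6, -0.021 to 0.17 for Sirt7, 0.012 to 0.069 for Parp1 and -0.29 to 0.10 for Parp2. Sirt4, Sirt5, Sirt6 and Parp1 kept their sign in all 18, though not their size. Values under the replicate block ran from -0.29 (Sirt4) to 0.20 (Sirt6) with 0 of the 9 called. The labels do not say whether same-numbered samples were paired. Same-numbered arrays correlated at -0.13, -0.27 and -0.55 after removing group means, and none correlated best with its own number. These correlations rest on 4 and 3 arrays that also carry the division by median, so they cannot show whether samples were paired. All genes called numbered 53 after quantile normalization, 516 with the median set as a block, 0 with the replicate block and with the ordinary linear model, and 12 to 105 without 1 array. Without calorie restricted replicates 1, 2 or 3 they numbered 12, 23 and 12, and without ad libitum replicate 2 they numbered 32. The cause of these changes was not tested. The number of arrays limits the precision.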
